A study of Oryza sativa with 11 samples.

Results

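Root tips of 2 rice genotypes grown without added salt are compared here: FL478, which is salt-tolerant, and IR29, which is salt-sensitive. The 5 arrays were taken from a series of 11 by the genotype and the control treatment given in the labels, 3 from FL478 control plants and 2 from IR29 control plants, with 1 array for each biological replicate. FL478 is a single recombinant inbred line derived from an F2 plant, and IR29 is 1 of the parents of the cross from which it came, so that the lines share part of their genome. The other 6 arrays, 3 of FL478 and 3 of IR29, came from plants of the same lines under salt stress. They enter neither group mean of the control comparison, though they share its estimate of the spread, and served as other samples in which the same genotype difference could be looked up. The labels describe the culture as hydroponic, while the study's methods describe sand tanks irrigated with nutrient solution. The study itself compared salt with control within each genotype, and the genotype comparison without salt described here asks what already differs in the roots before any stress is applied.

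Rice root tips hold the meristem, the elongation zone and the youngest part of the zone in which xylem, endodermis and root hairs mature. Salt tolerance in rice roots is known to rest in part on control of sodium entry and of its loading into the xylem, for which HKT-type sodium transporters, high-affinity potassium transporters and the salt overly sensitive pathway are the best-known components. Roots also carry a constant supply of defence proteins and of specialised metabolites, among them diterpenoids that rice roots make and partly release. Differences between cultivars in such genes are common in plants and need not depend on a treatment.

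The values are signal intensities of Affymetrix probe sets, each a group of short probes for 1 transcript, in arbitrary units scaled so that every array has the same trimmed mean. Of 57258 probe sets, 22436 have 1 annotated gene. Differences are given on the log2(signal + 32) scale as FL478 minus IR29, so that a positive value is higher in FL478, and understate the change of dim probe sets. The adjusted p is that of limma over all probe sets, and a probe set is called under 0.10. The median signal of the 5 arrays lay between 52.6 and 61.3 units, and 36.6% to 40.0% of probe sets lay under 32 units. Arrays of 1 genotype correlated with r of 0.968 to 0.972, and arrays of different genotypes with 0.955 to 0.967. The log2 ratio of the GAPDH probe sets at the 3′ and 5′ ends, a measure of RNA integrity, averaged 0.577 ± 0.060 in FL478 and 0.652 ± 0.0086 in IR29 (SD, n = 3 and 2, two-sided exact permutation p = 0.2, with 0.1 the smallest that 10 splits allow).

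Without salt, 342 of the 57258 probe sets (0.597%) differed between FL478 and IR29. They comprised 192 that were higher in FL478 (0.335%) and 150 that were lower (0.262%). The arrays of the groups did not overlap for any of the 342, a property that 23.9% of all probe sets had. The differences were large: the median was 1.90 among the higher probe sets, a 3.72-fold difference, and −2.06 among the lower ones, a 4.18-fold difference. More than a 4-fold difference was seen for 83 of the higher and 78 of the lower probe sets. Before adjustment, 4534 probe sets had a p under 0.05.

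Many of these differences had the form of a transcript that was read in 1 genotype and hardly at all in the other. For 64 of the 192 higher probe sets both IR29 arrays lay under 32 units, and for 57 of the 150 lower ones all FL478 arrays did. The probes were designed on reference rice sequences. A lower transcript level and a sequence difference under the probes cannot be told apart in these data, because no probe or genotype sequence was analysed here. Of the called probe sets, 74 (21.6%) are of the types whose probes may be shared by several transcripts, against 19.9% of all probe sets.

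The strongest difference of all was that of LOC4349330, a gene on chromosome 10 without a functional name in the annotation used. Its signal was 18481, 23194 and 19599 units in FL478, against 33.1 and 321 units in IR29. The FL478 arrays were thus among very bright transcripts and the IR29 arrays were dim, a 134-fold difference (log2 7.07 ± 0.76 SE, adjusted p = 0.00328). The probe set Os.48206.1.S1_at, which has no annotated gene, read 4767, 6026 and 5027 units in FL478, against 3.9 and 16.9 units in IR29 (adjusted p = 7.23e-05). Another, Os.9273.1.S1_x_at, was 76.9-fold higher in FL478, with 3688, 4845 and 4450 units against 11.5 and 40.9 units in IR29.

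In the opposite direction, the probe set Os.17916.1.S1_at, again without an annotated gene, read 147, 1.7 and 694 units in FL478, against 12216 and 27199 units in IR29. The FL478 arrays differed widely among themselves but all lay far below IR29 (log2 −6.80 ± 0.99, adjusted p = 0.021). The smallest adjusted p of the comparison, 6.32e-06, belonged to Os.48695.1.S1_s_at, with 16.7, 15.7 and 4.5 units in FL478 and 3650 and 4679 units in IR29. A second probe set of the same transcript cluster, Os.48695.1.S1_x_at, read 26.4, 50.9 and 47.5 units in FL478 and 1885 and 2556 units in IR29. LOC4335019, a gene on chromosome 4 without a functional name, read 4.2, 5.7 and 45.1 units in FL478, against 2640 and 3761 units in IR29 (log2 −6.08 ± 0.32, adjusted p = 6.21e-05).

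Most of the called probe sets cannot be assigned a function from the annotation used. One gene was annotated for 108 of the 192 higher probe sets (56.2%, 100 genes) and for 60 of the 150 lower ones (40.0%, 58 genes), against 39.2% of all probe sets. A descriptive symbol or product name was at hand for 51 of the 342. These descriptions come partly from the study's own tables of salt-responsive probe sets, which hold 12.9% of the called probe sets and 2.81% of all, so that the named genes are not a random draw of the called ones.

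Among the named genes that were higher in FL478, the largest difference was that of LOC_Os07g05640 on chromosome 7, described as a proton myo-inositol cotransporter. Transporters of this kind carry myo-inositol, a precursor of cell wall sugars and of signalling lipids, across membranes. Its signal was 2562, 3330 and 1972 units in FL478, against 2 and 4.8 units in IR29 (log2 6.20 ± 0.38, adjusted p = 0.000139). Both IR29 arrays were thus close to 0. LOC_Os12g36640 on chromosome 12, described as a homologue of the cotton fiber protein Fb19, read 8961, 10330 and 7397 units in FL478 and 115 and 145 units in IR29, a 54.9-fold difference (adjusted p = 5.93e-05). Its second probe set was called as well (log2 6.24, adjusted p = 0.000134).

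Single genes of hormone and nitrogen metabolism were among those higher in FL478. ILL3 encodes an IAA-amino acid hydrolase of the ILR1 family, enzymes that release free auxin from its amino acid conjugates, and its signal was 1027, 2301 and 1280 units in FL478, against 72.6 and 111 units in IR29 (log2 3.60 ± 0.42, adjusted p = 0.00632). ALN encodes allantoinase, which opens the ring of allantoin in the breakdown of purines. Its values were 809, 458 and 574 units in FL478, against 115 and 90.9 units in IR29 (log2 2.23 ± 0.23, adjusted p = 0.00235). PSK4, a precursor of the peptide hormone phytosulfokine, read 1964, 1673 and 1383 units in FL478 and 504 and 274 units in IR29. LOC_Os02g08530, described as a phytosulfokine receptor, read 698, 481 and 616 units in FL478 and 138 and 140 units in IR29. PSK4 was 4.17-fold higher (adjusted p = 0.0798) and the receptor 3.65-fold higher (adjusted p = 0.0638), and this pair was picked out after their values were seen. Neither stayed called when any 1 of the FL478 control arrays was left out.

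Some single genes higher in FL478 encode proteins with known roles in defence. In the list of pathogenesis-related proteins none of the 24 genes was called by its brightest probe set. The list includes tubby-like proteins matched by their symbols, so its values are not those of pathogenesis-related proteins alone. The 1 gene called by another probe set was a tubby-like protein, TULP12, named after its values were seen (log2 1.13, against −0.32 for its other probe set). The median of the list was −0.13, with 17 genes below 0. In 1 gene all FL478 arrays were above IR29, as in 12.1% of all genes, and in 5 all were below, as in 13.8% of all genes. LOC_Os01g03680 on chromosome 1, a Bowman-Birk type trypsin inhibitor of the kind that blocks digestive proteases, read 1623, 2492 and 1972 units in FL478, against 199 and 154 units in IR29 (log2 3.29 ± 0.27, adjusted p = 0.000603). Another gene of chromosome 1 with the same description, pinA, went the other way but was not called (log2 −4.64 ± 1.90, adjusted p = 0.567). The locus LOC_Os07g03467, described as the pathogenesis-related protein PRB1-3, had 2 called probe sets. The first read 2573, 1801 and 2385 units in FL478 and 394 and 192 units in IR29 (log2 2.87 ± 0.53, adjusted p = 0.0638). The second read 2033, 496 and 977 units in FL478 and 207 and 104 units in IR29 (log2 2.52 ± 0.49, adjusted p = 0.0846), while a further probe set of the gene that the first one reads gave 0.05 (adjusted p = 0.994). LOC_Os07g03730, a PR1-type protein, had 558, 572 and 539 units in FL478 and 176 and 122 units in IR29 (log2 1.72 ± 0.28, adjusted p = 0.0327), and was named after its values were seen. HIRL2, of the family of hypersensitive induced reaction proteins, read 689, 1402 and 662 units in FL478 and 312 and 82.8 units in IR29, close to the threshold (adjusted p = 0.0942).

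The remaining named genes higher in FL478 had diverse functions. LOC_Os10g21670, described as a dehydration stress-induced protein, read 1867, 919 and 417 units in FL478 and 11.1 and 9.3 units in IR29 (log2 4.47 ± 0.73, adjusted p = 0.0356). The FL478 arrays spread more than 4-fold but were all far above IR29. SPO11-4, a relative of the DNA topoisomerase that opens meiotic recombination, described in the study's tables as RHL2, was 6.01-fold higher, with 1530, 1726 and 1998 units in FL478 and 303 and 228 units in IR29. LOC_Os12g36670, a putative ubiquitin-protein ligase, was 6.53-fold higher, with 4267, 3955 and 5330 units in FL478 and 946 and 456 units in IR29. LOC_Os04g29920, a seed maturation protein, was 4.36-fold higher, with 288, 412 and 298 units in FL478 and 46.2 and 55.3 units in IR29. Another probe set of this gene gave a log2 difference of 0.48 (adjusted p = 0.613).

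**Figure D1:**
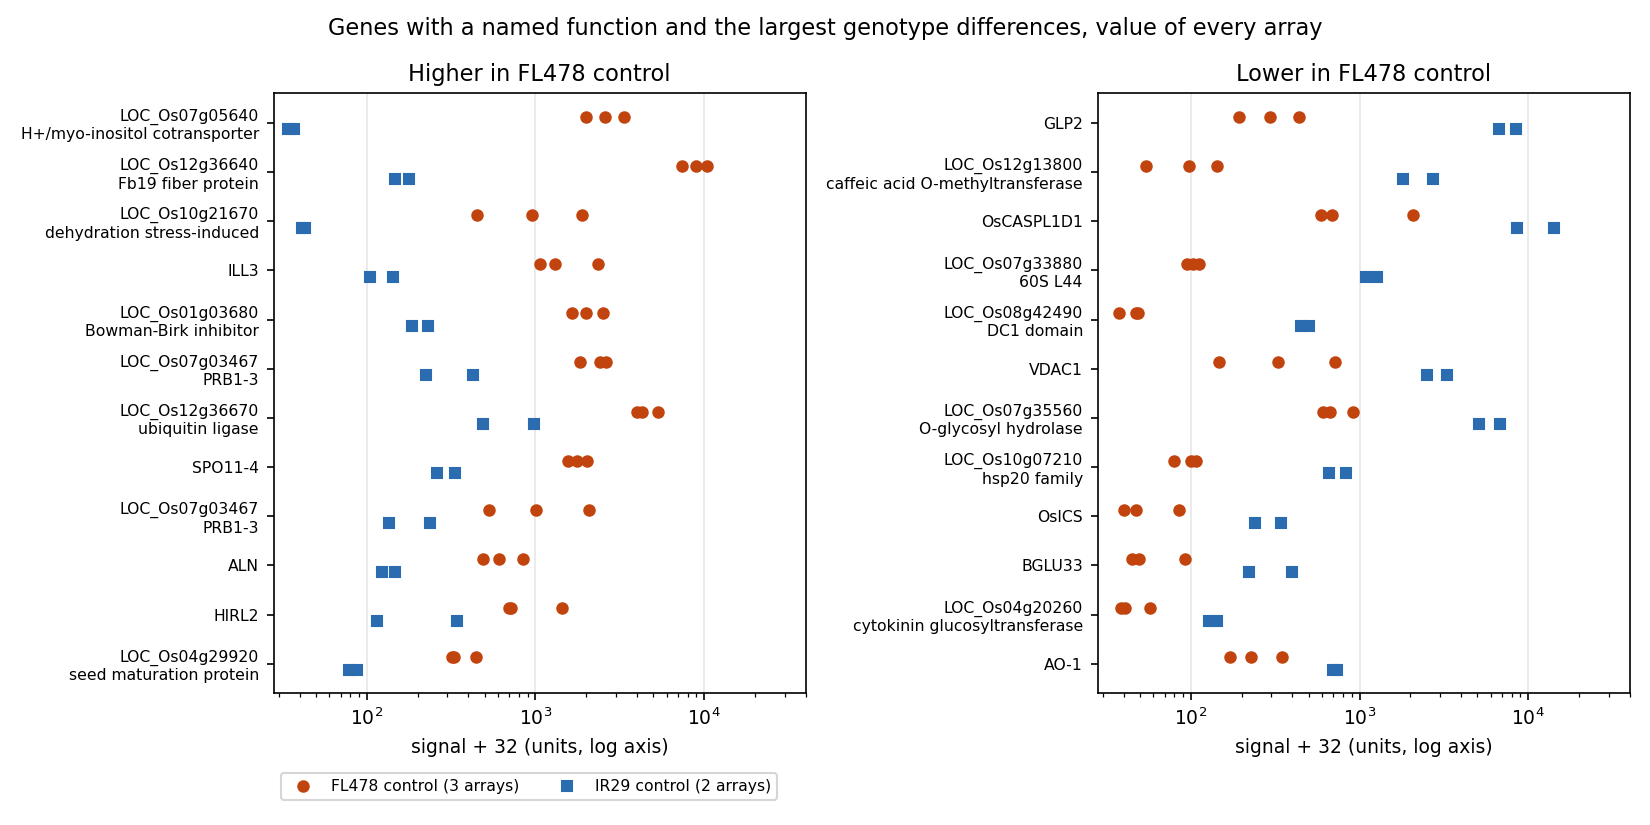
Signal + 32 of each control array (units, log axis) for the 12 probe sets with a named function and the largest differences in each direction, with FL478 as circles (3 arrays) and IR29 as squares (2 arrays); LOC_Os07g03467 appears with 2 probe sets. The FL478 and IR29 arrays do not overlap in any row, and the IR29 arrays of LOC_Os07g05640 lie at 2 and 4.8 units before the offset.

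Among the named genes lower in FL478, the largest difference was that of GLP2, a germin-like protein of the cell wall from a cluster of similar genes on chromosome 8. Its signal was 261, 162 and 407 units in FL478, against 6662 and 8456 units in IR29 (log2 −4.69 ± 0.51, adjusted p = 0.00348). The annotation gives it the synonyms RGLP1 and RGLP2, and another probe set assigned to the gene gave 0.65 (adjusted p = 0.873), so that the signal may belong to 1 of several near-identical copies. Its neighbour in the gene order, LOC4344847, was also lower (log2 −0.87, adjusted p = 0.0607).

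The next largest differences belonged to single genes with diverse functions, and the lists of cell wall and of flavonoid and lignin genes held no member called lower. LOC_Os12g13800, a putative caffeic acid 3-O-methyltransferase, an enzyme class that methylates lignin precursors, read 65.2, 22.1 and 112 units in FL478, against 1772 and 2710 units in IR29 (log2 −4.61 ± 0.39, adjusted p = 0.000763). OsCASPL1D1 belongs to the relatives of the membrane proteins that place the Casparian strip, and read 655, 559 and 2043 units in FL478, against 8555 and 14244 units in IR29 (log2 −3.55 ± 0.47, adjusted p = 0.0129). The third FL478 array was the highest of its group but was still more than 4-fold under the lower IR29 array. LOC_Os07g35560, an O-glycosyl hydrolase, was 8.20-fold lower, with 882, 579 and 638 units in FL478 and 5104 and 6773 units in IR29. LOC_Os05g06970, described as peroxidase 1 and named after its values were seen, was 2.38-fold lower (adjusted p = 0.0476).

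Other single genes lower in FL478 encode proteins of basic cell functions and of hormone and defence metabolism. VDAC1, a channel of the outer mitochondrial membrane, read 116, 296 and 681 units in FL478 and 2487 and 3257 units in IR29 (adjusted p = 0.0377). Its other 2 probe sets gave −0.60 and −0.00051 and were not called. LOC_Os07g33880, a 60S ribosomal protein L44, read 62.8, 80.2 and 70.9 units in FL478 and 1240 and 1055 units in IR29 (log2 −3.51 ± 0.23, adjusted p = 0.000192). It stood alone in this, since none of the 25 genes of the ribosomal protein list was called. Their differences lay between −0.18 and 0.27, with a median of −0.04. LOC_Os10g07210, of the small heat shock protein family, was 7.79-fold lower, with 47.8, 74.8 and 67.8 units in FL478 and 628 and 794 units in IR29. Here too the other 2 probe sets of the gene did not follow, with 0.56 and 0.48.

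OsICS, isochorismate synthase, stands at the start of a route to salicylic acid and phylloquinone, and read 15.5, 8.3 and 52.8 units in FL478 and 208 and 310 units in IR29 (log2 −2.39 ± 0.35, adjusted p = 0.021). BGLU33, a beta-glucosidase, was 5.05-fold lower, with 17.1, 12.9 and 60.6 units in FL478 and 190 and 366 units in IR29. LOC_Os08g42490, with a DC1 domain, was called by each of its 3 probe sets, the first of which read 5.4, 15.1 and 16.7 units in FL478 and 417 and 467 units in IR29. LOC_Os04g20260, described as a cytokinin-O-glucosyltransferase, a class of enzymes that store cytokinins as glucosides, was 3.03-fold lower, with 8.5, 25.4 and 6.5 units in FL478 and 112 and 95.9 units in IR29. AO-1, an aldehyde oxidase, was 3.00-fold lower, with 317, 139 and 196 units in FL478 and 667 and 701 units in IR29.

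The genotype differences were looked up in the 6 salt arrays. These entered no group mean of the control comparison, but they contributed to the estimate of the spread behind its calls. There the difference between FL478 and IR29 had the same sign for 319 of the 342 probe sets (93.3%), against 59.4% of all probe sets. It was called in the same direction for 242, comprising 127 of the 192 higher and 115 of the 150 lower probe sets, where 1.75% of all probe sets were called under salt. In a fit of the 6 salt arrays alone, which shares no estimate of the spread with the control arrays, 200 of the 342 were called in the same direction. That fit called 570 of all 57258 probe sets in either direction. The median size of the difference under salt was 1.52 for the probe sets higher without salt and 2.19 for those lower.

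For the genes with large differences without salt, the difference under salt had the same direction but not always the same size. LOC_Os07g05640 differed by 6.20 without salt and by 6.0 under salt, LOC_Os12g36640 by 5.78 and 5.77, and GLP2 by −4.69 and −5.02. Os.17916.1.S1_at differed by −6.80 without salt and by −8.48 under salt, and Os.9273.1.S1_x_at by 6.27 and 4.80. For LOC_Os12g13800 the difference was −4.61 without salt and −6.94 under salt, with 8.7, 21.9 and 44.3 units in FL478 salt arrays and 6437, 7263 and 6585 units in IR29 salt arrays. OsCASPL1D1 differed by −3.55 without salt and by −5.54 under salt. Neither change with salt passed the test of the change itself (adjusted p = 0.951 for LOC_Os12g13800 and 0.9999 for OsCASPL1D1).

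A smaller group of genes differed only a little between the genotypes on the salt arrays. The difference under salt was less than 0.5 in size for 54 of the 342 probe sets, 33 of them higher and 21 lower in FL478 without salt. LOC_Os10g21670, with 1867, 919 and 417 units in FL478 control arrays, read 6.5, 8.2 and 159 units in FL478 salt arrays and 21.8, 6.8 and 48.8 units in IR29 salt arrays (log2 0.27 under salt). CHS, chalcone synthase, the entry enzyme of flavonoid synthesis, was 1.62 higher in FL478 without salt, with 954, 783 and 612 units against 186 and 279 units in IR29 (adjusted p = 0.0558). Under salt it read 617, 451 and 628 units in FL478 and 392, 670 and 652 units in IR29, and the groups overlapped. Another probe set of CHS gave a difference of only 0.31 without salt (adjusted p = 0.915).

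LOC_Os12g25490, described as the O-methyltransferase ZRP4 and named after its values were seen, belonged to the same group. It read 564, 729 and 753 units in FL478 control arrays and 130 and 165 units in IR29 control arrays (log2 1.99 ± 0.34, adjusted p = 0.0463), against a difference of 0.27 under salt (adjusted p = 0.815). The second PRB1-3 probe set belonged to this group as well, with a difference of 0.16 under salt. The test of the change of the genotype difference with salt called no probe set in limma (the smallest adjusted p was 0.231), although 2596 of all probe sets and 91 of the 342 had an unadjusted p under 0.05. That such genes respond differently to salt in the genotypes was therefore not shown at this number of arrays.

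**Figure D2:**
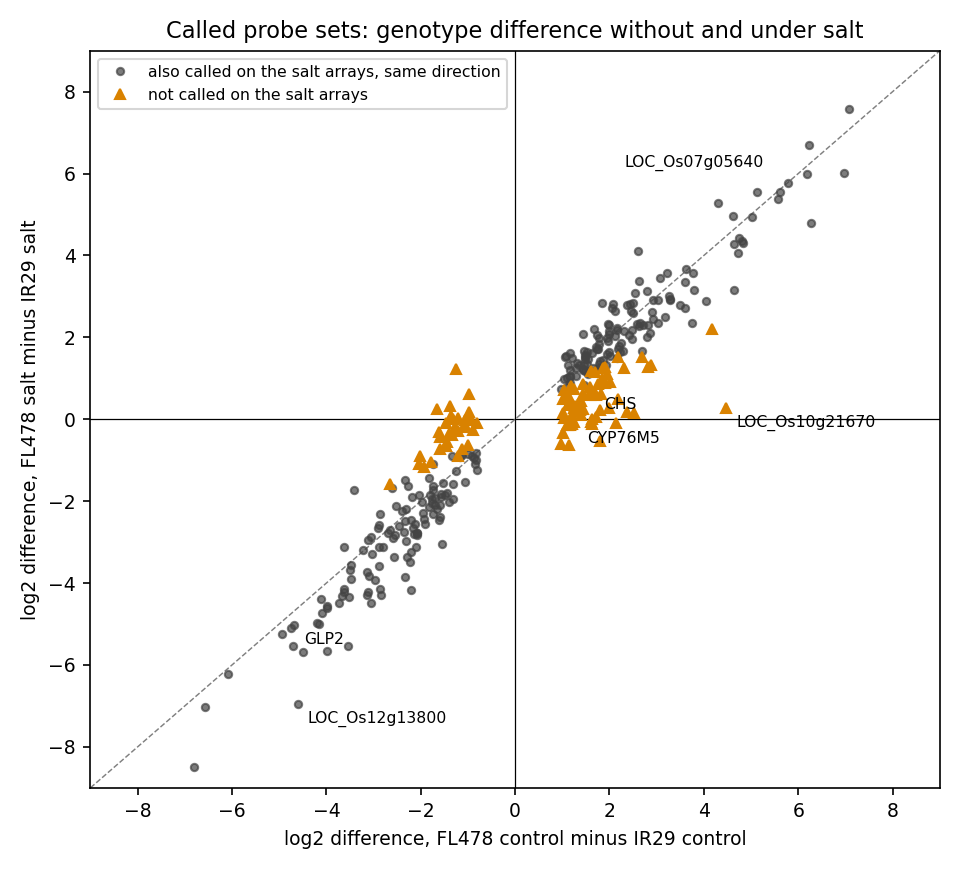
Log2 difference between FL478 and IR29 without salt (x axis) and under salt (y axis) for the 342 called probe sets, on axes of log2(signal + 32), with the dashed line marking equal differences. The 242 probe sets also called under salt (circles) have the same sign in both and scatter about the line, as LOC_Os12g13800 at −4.61 and −6.94 shows, and the 100 others (triangles) include LOC_Os10g21670, at 4.47 without salt and 0.27 under salt.

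Families linked to salt tolerance and root function were described by 39 lists of genes drawn from symbols and synonyms, with the brightest probe set standing for each gene. Over all 17905 genes, 0.726% were called and the median difference was −0.02. Of the 854 genes in the lists, 3 were called, in 4 of the 39 lists, and all 3 were higher in FL478: CHS, CYP76M5 and CESA5. A probe set other than the brightest was called for 1 gene of the pathogenesis-related list, the tubby-like TULP12, and for 1 of the glycolysis and fermentation list. The list of wall-associated kinases held no measured gene.

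None of the 28 genes of sodium and potassium transport was called, and their median difference was −0.03. HKT1.5, also known as SKC1, is the transporter that removes sodium from the xylem and underlies a quantitative trait locus for potassium content in rice. It read 79.7, 74.4 and 637 units in FL478, against 466 and 137 units in IR29. The arrays of the genotypes overlapped, and 1 array of each group was several times brighter than the rest of its group (log2 −0.54 ± 0.85, adjusted p = 0.94). A difference of this size was not detectable with these arrays. The high-affinity potassium transporter HAK1, named after its values were seen, was bright in all arrays, with 20289, 17953 and 22425 units in FL478 and 24544 and 13474 units in IR29. The largest differences of the list were 0.81 for HAK3 and −0.79 for HAK18, with adjusted p of 0.754 and 0.684.

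Calcium sensor kinases, aquaporins and water deficit proteins gave no call either, with medians of −0.03 for 31 CBL and CIPK genes, 0.05 for 25 aquaporins and −0.09 for 18 water deficit proteins. CIPK6, a kinase of the calcineurin B-like network, read 753, 774 and 1030 units in FL478 and 534 and 318 units in IR29, a difference of 0.98 that did not pass the test (adjusted p = 0.322). The salt-inducible lectin salT, listed as ML, read 7276, 4245 and 6049 units in FL478 and 3218 and 3553 units in IR29. All of its FL478 arrays were above IR29, but the difference of 0.75 was not called (adjusted p = 0.459).

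The list with the highest median was that of diterpenoid phytoalexin synthesis, at 0.95 over 17 genes. These genes encode the cyclases and cytochromes P450 that build momilactones and phytocassanes, the labdane-type defence compounds of rice, many of them in clusters on chromosomes 2 and 4. Of the 17 genes, 14 were above 0 and 6 were higher at an unadjusted p under 0.05. In 8 of the 17 all FL478 arrays were above both IR29 arrays, as in 12.1% of all genes, and in none were all FL478 arrays below, as in 13.8% of all genes.

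One member of the list passed the test. CYP76M5, in the phytocassane cluster, read 145, 108 and 96.1 units in FL478, against 22.9 and 37.4 units in IR29 (log2 1.25 ± 0.23, adjusted p = 0.0632). CYP99A2, a momilactone gene, had the largest difference, 3.53 ± 0.72, and just missed the threshold (adjusted p = 0.103). It read 3549, 1195 and 953 units in FL478, against 57.8 and 189 units in IR29. The first FL478 array was the brightest for CPS2 (598, 328 and 93.2 units in FL478, against 3.7 and 69.3 units in IR29) and for DTS2, the diterpene synthase KSL4 of the momilactone cluster (608, 53.7 and 107 units in FL478, against 2.7 and 13.3 units in IR29). Without that array the list's median was 0.74. On the salt arrays the median of the list was −0.27.

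The flavonoid and lignin list had a median of 0.32 over 16 genes and held CHS as its only called member. The cell wall list had a median of 0.06 over 58 genes, and 1 of them was called: CESA5, a cellulose synthase of the primary wall, with 4980, 5748 and 5295 units in FL478, against 2131 and 2206 units in IR29. The arrays of each genotype lay close together, and the difference of 1.29 ± 0.23 (adjusted p = 0.0543) was nearly the same under salt (1.26, adjusted p = 0.0188). In the limma fit of the salt arrays alone it was not called (adjusted p = 0.115). The other members of the flavonoid and lignin list were not called and went in both directions. CAD6, of the cinnamyl alcohol dehydrogenase family, differed by 1.15 (adjusted p = 0.568), Cfi, chalcone isomerase, by −0.68 (adjusted p = 0.334) and 4CL-3, a 4-coumarate:CoA ligase, by 0.63 (adjusted p = 0.694). Over the list, 2 members were higher and 2 lower at an unadjusted p under 0.05.

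Some members of the lists showed large differences that were not called because arrays of 1 genotype disagreed. IRT2, an iron transporter of the root surface, read 14964, 16654 and 12232 units in FL478, against 5834 and 92.3 units in IR29 (log2 4.09 ± 1.16, adjusted p = 0.28). One IR29 array was bright and the other dim. BURP2, a BURP domain protein, read 9150, 16001 and 6936 units in FL478 and 5951 and 467 units in IR29 (log2 2.55 ± 1.03, adjusted p = 0.558). Both genes had all FL478 arrays above IR29, and both were called under salt (5.6, adjusted p = 0.0366 for IRT2, and 4.52, adjusted p = 0.0560 for BURP2). In the other direction, pinA, which its symbol placed in the list of resistance genes, read 324, 79.5 and 5541 units in FL478 and 13403 and 16913 units in IR29 (log2 −4.64 ± 1.90, adjusted p = 0.567). It is described as a Bowman-Birk type trypsin inhibitor, like LOC_Os01g03680, which was higher in FL478.

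**Figure D3:**
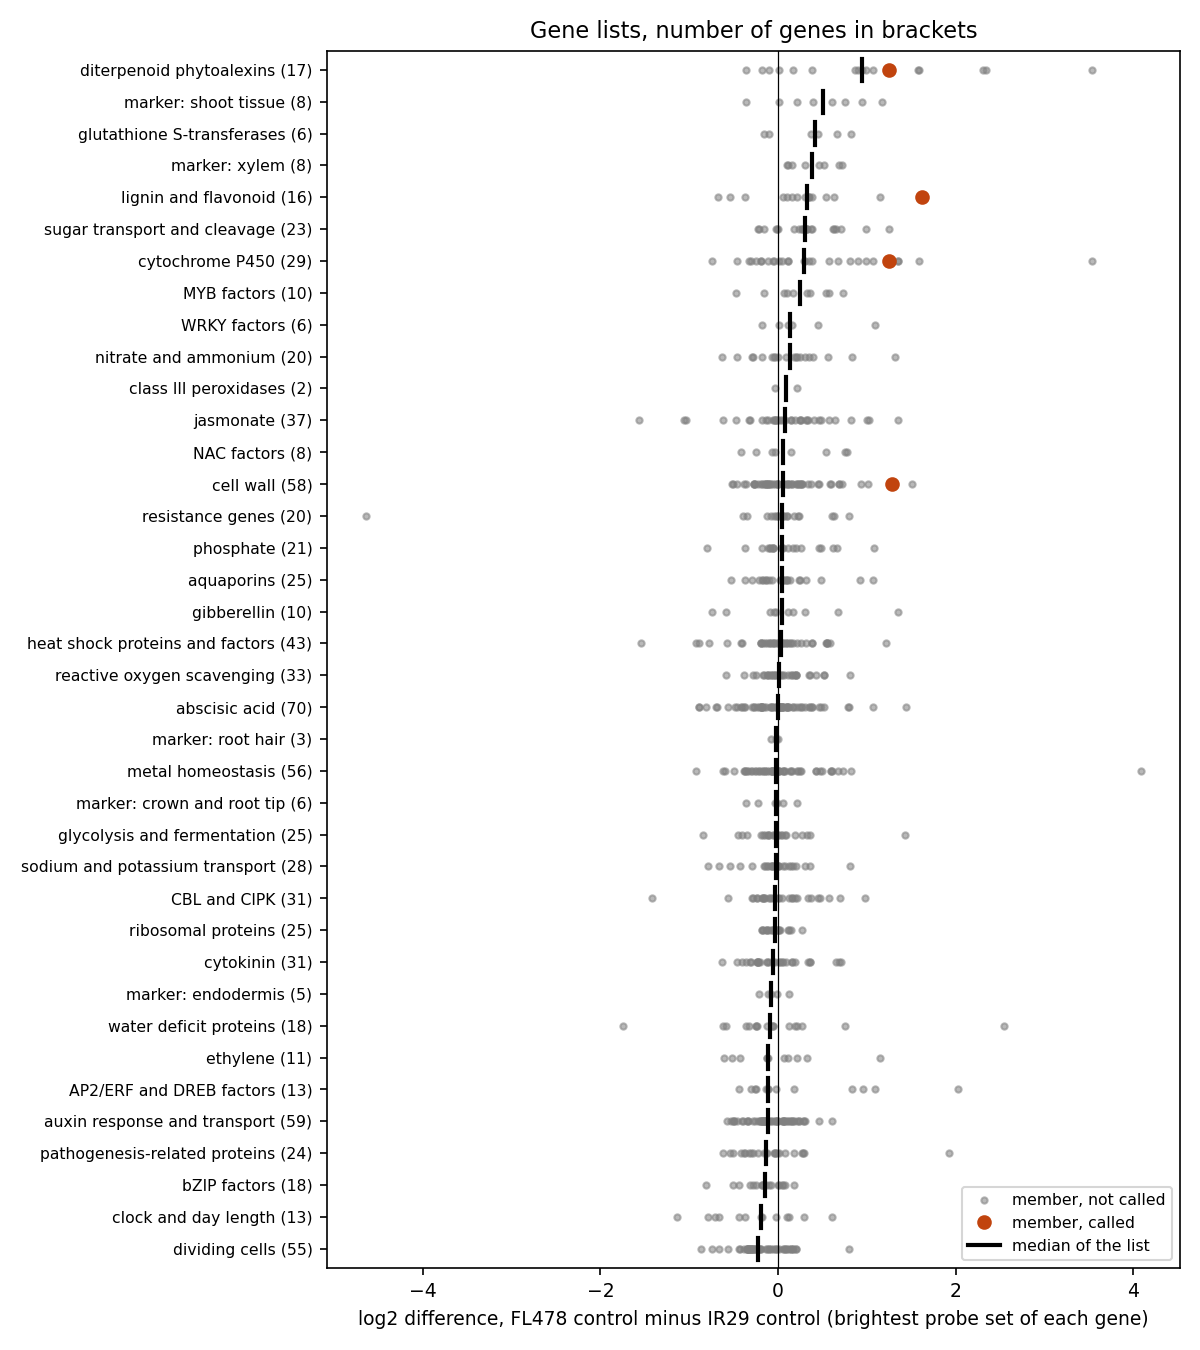
Log2 difference, FL478 control minus IR29 control, of each gene of the 38 lists with a measured member (points, brightest probe set of each gene), with the median of each list as a black bar and called genes as large points. Diterpenoid phytoalexins have the highest median (0.95) and dividing cells the lowest (−0.22), and CHS, CYP76M5 and CESA5 are the called genes, with CYP76M5 drawn in 2 lists.

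Lists of transcription factors, heat shock proteins, hormone genes, sugar transport and mineral nutrition held no called member. Their medians lay between −0.15 for 18 bZIP factors and 0.31 for 23 genes of sugar transport and cleavage. HSF02, a heat shock factor, came closest among them, with 9.6, 14.6 and 16.6 units in FL478 and 90.8 and 110 units in IR29 (log2 −1.54 ± 0.32, adjusted p = 0.112). Next was RK1, the kinase SAPK6 of the SnRK2 family, which acts in abscisic acid and osmotic stress signalling. It read 1495, 1464 and 1582 units in FL478 and 916 and 536 units in IR29 (log2 1.07 ± 0.23, adjusted p = 0.121), and the difference was 1.01 under salt (adjusted p = 0.0542).

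The makeup of the sampled tips was checked with marker lists. Endodermis markers were present in both genotypes, for example the silicon transporter Lsi1 with 28784, 32174 and 26203 units in FL478 and 31644 and 35533 units in IR29, and the median of 5 such markers was −0.07. Root hair markers (3 genes, −0.02) and crown and root tip markers (6 genes, −0.02) gave small medians, and no marker was called. The 8 xylem markers were all above 0, with a median of 0.38. Their summed signal was 20034, 21619 and 23769 units in FL478 and 16678 and 19278 units in IR29 (two-sided exact permutation p = 0.2).

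Genes of dividing cells were in the opposite position. Of 55 such genes, which encode cyclins, histones and replication proteins, 41 were below 0, and the median was −0.22. Their summed signal was 92278, 105640 and 95703 units in FL478 and 112040 and 115050 units in IR29, and the groups did not overlap (two-sided exact permutation p = 0.2). Shoot tissue markers had low summed signals over 8 genes of 1159, 1041 and 1507 units in FL478 and 946 and 476 units in IR29, with no overlap (two-sided exact permutation p = 0.1). In whole root tips, fewer cells of a type and less RNA per cell cannot be told apart. The part of these shifts in the called differences was not tested.

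Some clock genes followed the replicate number of the arrays more than the genotype. GI, a clock component with an evening peak, read 2537, 12085 and 2472 units in FL478 and 5809 and 15164 units in IR29. CCA1, a morning gene of the clock named after its values were seen, read 16323, 6605 and 14957 units in FL478 and 14951 and 3945 units in IR29. The second array of each genotype was thus the highest of its group for GI and the lowest for CCA1. None of the 13 genes of this list was called (median −0.19), and the part of this pattern in other differences was not tested.

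Where a gene has several probe sets, they serve as a check within the same arrays. Among the 158 genes with a called probe set, 44 had another probe set of at least median brightness, 57 in all. Of these 57, 40 had the same sign as the called probe set and 17 the opposite one, and 10 were called, all 10 in the same direction. Both probe sets were called for LOC_Os12g36640 (5.78 and 6.24) and for LOC4344829, an unnamed gene on chromosome 8 (−3.04 and −2.90). In GLP2, VDAC1, LOC_Os10g07210 and Rictpi2, triosephosphate isomerase (1.98 and 0.0035), the other probe sets gave much smaller or opposite values. The same held for CHS (1.62 and 0.31), LOC_Os04g29920 (2.13 and 0.48) and the first PRB1-3 probe set (2.87 and 0.05), among others. LOC4344829, Rictpi2 and LOC4344847 were named after their values were seen. Probe sets of 1 gene may read different transcript ends, related genes or sequences that differ between the genotypes, and these were not told apart here.

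**Figure D4:**
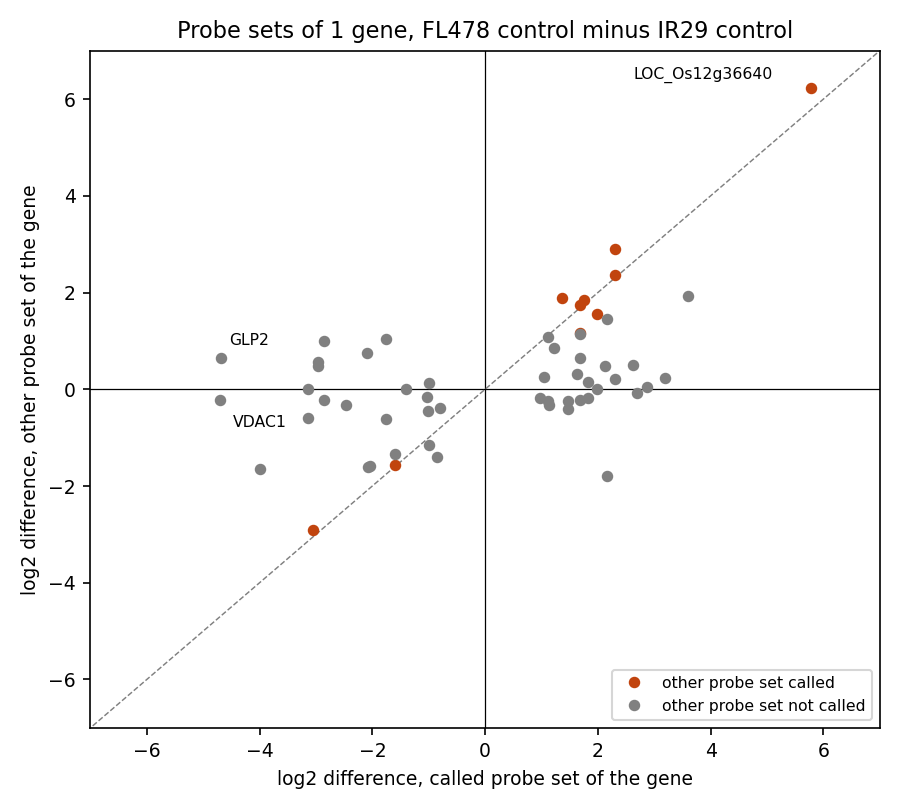
Log2 difference, FL478 control minus IR29 control, of the called probe set of a gene (x axis) and of each other probe set of the same gene of at least median brightness (y axis, 57 points for 44 genes), with the dashed line marking equal differences. The 10 other probe sets that were also called lie near the line, while GLP2 combines −4.69 with 0.65.

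The called genes were placed in order along the chromosomes by the reference annotation. FL478 comes from a cross with IR29 and can differ from it in segments received from the other parent. Of 17903 placed genes, 158 (0.883%) were called. The share ran from 0.143% on chromosome 6 (2 of 1400 genes) to 1.98% on chromosome 12 (18 of 908 genes). Chromosome 7 had 1.38% and chromosome 8 1.24%. On chromosome 11, all 10 called genes were higher in FL478. Chromosome 1, which carries HKT1.5 and the Saltol region known to confer tolerance in FL478, had 15 called genes of 2649 (0.566%), 7 higher and 8 lower.

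Called genes with the same direction stood next to each other among the measured genes in 11 cases, 10 pairs and 1 run of 3 genes, 23 genes in all. The run of 3 lay on chromosome 12 and was lower in FL478. Its genes, LOC4351893, LOC4351897 and LOC9272184, have no functional names, and they differed by −2.17, −2.60 and −2.55. No FL478 array read above 33.3 units for any of the 3, while the IR29 arrays read between 129 and 318 units.

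Farther along chromosome 12, 4 of 5 neighbouring measured genes were higher in FL478. They were the Fb19 homologue LOC_Os12g36640 (5.78), the ubiquitin ligase LOC_Os12g36670 (2.71), LOC4352475 (2.16) and LOC4352476 (2.30), the last pair named after their values were seen. On chromosome 2, LOC_Os02g16630, a tryptophan synthesis gene of the trpCF type (1.82), stood beside LOC4328958 (2.62), and on chromosome 3 LOC4333770 (1.04) beside LOC4333771 (1.45). Of 364 windows of 50 measured genes, 263 held no called gene, and 5 held 4 or more, 22 of the 158 called genes in all. These windows and their size were chosen after the data were seen.

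**Figure D5:**
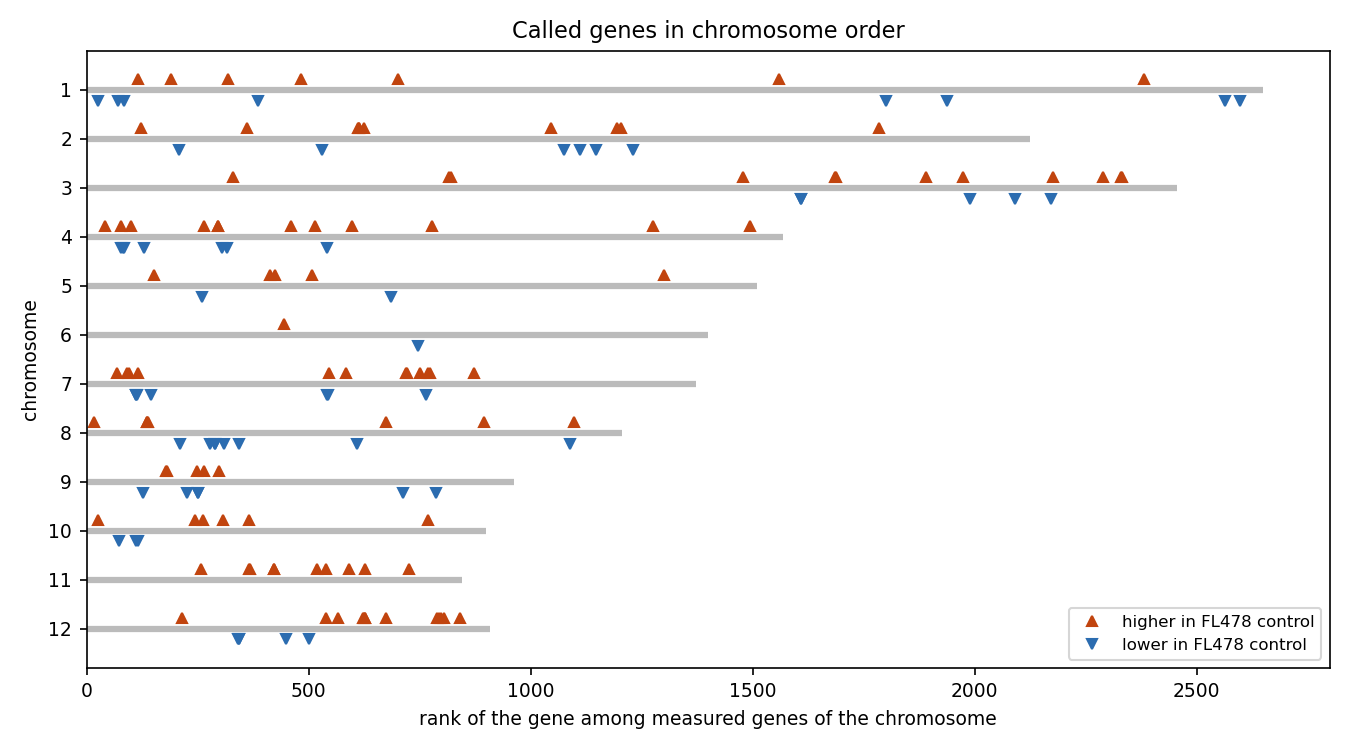
Called genes by their rank among the measured genes of each chromosome (grey bars, 12 chromosomes), with genes higher in FL478 above the bar and lower genes below it. Chromosome 12 has 18 called genes of 908, chromosome 6 has 2 of 1400, and all 10 called genes of chromosome 11 are higher in FL478.

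The number of calls depended on single arrays and on the salt arrays in the fit. With the 5 control arrays alone, 141 probe sets were called, 107 of them among the 342. Without 1 array at a time the count was between 86 and 399 in place of 342, with 86 calls without IR29 control replicate 2, 185 without FL478 control replicate 1, 191 without FL478 control replicate 2, 298 without FL478 control replicate 3 and 399 without IR29 control replicate 1. A lone IR29 array was assumed to vary like the other groups. Because the control arrays of the groups did not overlap for any of the 342, leaving out 1 array could not reverse a sign. All 342 kept their sign and an unadjusted p under 0.05 in each of these 5 fits, and 70 stayed called in every one. Of the 41 called probe sets named by the rule, 16 stayed called in every one: LOC4349330, LOC_Os07g05640, LOC_Os12g36640, ILL3, LOC_Os01g03680, ALN, GLP2, LOC_Os12g13800, LOC_Os07g33880, LOC_Os07g35560, LOC_Os10g07210, LOC4335019 and the 4 unannotated probe sets Os.48206.1.S1_at, Os.9273.1.S1_x_at, Os.48695.1.S1_s_at and Os.48695.1.S1_x_at. Of the 41, those called in none of the 5 were the first PRB1-3 probe set, CESA5, LOC4333770 and LOC4351897.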

How the data were processed

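Total RNA of root tips was hybridised to Affymetrix rice genome arrays, 1 array for each plant sample labelled as a biological replicate. The labels do not say whether replicates came from separate tanks, so that p-values measure the spread between these samples. The deposited values are linear signal intensities computed by the authors with GCOS and scaled to a common 2% trimmed mean. The study tested values from another summary method, not used here, and did not test this genotype comparison. No counts exist, so precision is limited by the number of arrays. Of 57381 probe sets, 123 controls were left out. Signals were analysed as log2(signal + 32) with limma 3.58.1 in R 4.3.3, fitting 1 mean for each of the 4 groups over 11 arrays, so that the spread was estimated jointly with 7 residual degrees of freedom. The contrasts were FL478 minus IR29 without salt, the same under salt, and their difference. P-values were adjusted by the Benjamini-Hochberg method over all probe sets and called under 0.10. The fit was also run on simulated data with independent noise and planted differences, as a check of the computation. Those data held no shifts common to the probe sets of an array, so that the check says nothing on the calls made here.

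Gene names came from RefSeq-based tables, the array annotation and descriptions in the study's supplementary tables. No coordinates are given because the annotation is of another genome build, and the order of genes follows that annotation. The genes named were, among called probe sets without overlapping arrays and above the median level, the 12 largest differences in each direction with a known function, the 4 largest in each direction of all, up to 4 members of each gene list with the largest differences, called members first, and the genes of the 3 longest runs of neighbours. Exceptions are marked. The members and lists were chosen with earlier results of these data known. Alternatives were other offsets, a floor, quantile normalization, an intensity filter, a variance trend, control arrays only, a replicate block, a GAPDH covariate, a stricter threshold and leaving out each control array.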

Additional observations from a re-analysis of the deposited data

Results flagged for a closer look

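For 3 listed genes, all FL478 arrays lay above all IR29 arrays without salt and all FL478 arrays lay below all IR29 arrays under salt. Of all 17905 genes, 12.1% had every FL478 control array above both IR29 control arrays. The share of all genes with such a reversal was not counted, so these 3 are given as single cases. None of these changes of direction passed the limma test of the change. PBZ1, a pathogenesis-related protein of the PR10 family, read 12339, 3647 and 4176 units in FL478 and 640 and 3408 units in IR29 without salt, and 1354, 293 and 1784 units in FL478 and 3261, 3654 and 6947 units in IR29 under salt. The genotype difference without salt exceeded that under salt by 4.15 on the log2 scale (adjusted p = 0.955). Pir7b, an esterase known from induced defence in rice, read 2224, 2565 and 3325 units in FL478 and 1163 and 1968 units in IR29 without salt, and 218, 209 and 244 units in FL478 and 611, 1136 and 922 units in IR29 under salt, a change of 2.62 (adjusted p = 0.404). CYP701A8, a cytochrome P450 of diterpenoid metabolism, read 556, 222 and 196 units in FL478 and 47.2 and 171 units in IR29 without salt, and 41.7, 28.9 and 70.4 units in FL478 and 103, 143 and 536 units in IR29 under salt, a change of 2.98 (adjusted p = 0.975).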

How the results depend on the processing

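All 342 called probe sets kept their sign under each alternative in which they were tested, except that 341 did with values under 32 set to 32. Their control arrays did not overlap, so the offsets, floor, filter, variance trend, control arrays alone and left-out arrays could not reverse a sign. Only quantile normalization, the replicate block and the GAPDH covariate could have done so. The number of calls moved more. With the control arrays only, 141 probe sets were called (84 higher and 57 lower in FL478), among them 107 of the 342, and 19 of the 41 called probe sets named by the rule were no longer called. At an adjusted p under 0.05, 221 were called, 93 of them lower. With the replicate number as a block, 245 were called, 98 of them lower. These held 213 of the 342, and 12 of the 41 were lost. The deviations of FL478 and IR29 control arrays with the same number correlated at 0.0045 and 0.227. Those of FL478 control and FL478 salt arrays correlated at 0.331, 0.136 and 0.194, and those of FL478 control and IR29 salt arrays at 0.148, 0.340 and 0.193, but over all same-numbered pairs the range was −0.143 to 0.340, and the labels do not say that a number marks a shared plant or day. Without 1 control array at a time, the count ran from 86 to 399, with 51 to 230 higher and 35 to 169 lower, the smallest without IR29 control replicate 2. The other settings gave 313 to 445 calls. With 2 IR29 control arrays and 7 residual degrees of freedom, differences in genes whose arrays disagree, such as HKT1.5 and IRT2, were not detectable.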
